A study of Mus musculus with 4 samples.

Results

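Acute-phase proteins, complement components and complement regulators were followed through 9 genes, Saa3, Hp, Lcn2, Ptx3, C3, Cfb, Serping1, C4bp and Cd55. They share these functions, and they were chosen with earlier results of these data known. A probe set, the group of short oligonucleotides on an Affymetrix array that together report 1 transcript, belonged to a member when the platform annotation gave it exactly that 1 gene symbol. This found 11 probe sets for 8 of the 9 genes, among 45037 probe sets and 18193 genes named in all. No probe set used here was named C3, and C3 is not analysed here. RNA came from 3T3-MEFs, fibroblasts of mouse embryos passaged in culture until they grow as a permanent line, harvested at confluence without a differentiation stimulus. Wild-type cells, with 2 arrays, were compared with SMRTmRID cells, with 2 arrays. SMRT is a corepressor, a protein through which nuclear receptors hold target genes silent, and mRID denotes mutated receptor interaction domains. The labels name the arrays of a genotype technical replicates, so every p-value measures technical spread, and variation between independent lines was not analysed here.

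Acute-phase proteins are secreted during infection or injury, mainly by the liver, when interleukin-1, interleukin-6 and tumour necrosis factor activate the transcription factors NF-kB, STAT3 and C/EBP. Fibroblasts and adipocytes also make several of them, among them Saa3 and Lcn2. Complement is a cascade of plasma proteases that marks and lyses microbes. Its classical, lectin and alternative branches meet at C3, and soluble and membrane-bound regulators hold it back on the body's own cells. Glucocorticoid and other nuclear receptors act on many of these genes.

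Upstream sequences are shown for 4 members whose signals behaved differently: Saa3, which rose most, Lcn2, which rose less, Ptx3, which did not pass the test, and C4bp, which fell. They are the 250 bases before a transcription start site in RefSeq on GRCm38.p6, read 5′ to 3′ on the gene's strand, and 6 of the 9 members were in that table. Saa3 lies at chr7:46715677-46715926 on the minus strand, Lcn2 at chr2:32387740-32387989 on the minus strand, Ptx3 at chr3:66219637-66219886 on the plus strand and C4bp at chr1:130661619-130661868 on the minus strand. Capitals mark matches to the C/EBP pattern TTNNGNAA or its reverse complement TTNCNNAA.
Saa3: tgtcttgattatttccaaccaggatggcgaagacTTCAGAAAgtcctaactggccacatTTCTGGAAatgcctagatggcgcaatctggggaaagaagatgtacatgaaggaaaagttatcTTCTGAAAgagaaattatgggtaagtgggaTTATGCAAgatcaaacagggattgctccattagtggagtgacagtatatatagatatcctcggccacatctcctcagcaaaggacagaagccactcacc
Lcn2: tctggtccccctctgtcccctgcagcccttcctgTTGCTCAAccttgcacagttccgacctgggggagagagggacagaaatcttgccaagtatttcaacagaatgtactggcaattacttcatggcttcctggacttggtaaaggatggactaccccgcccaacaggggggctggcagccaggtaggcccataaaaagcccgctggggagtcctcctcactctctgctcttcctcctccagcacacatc
Ptx3: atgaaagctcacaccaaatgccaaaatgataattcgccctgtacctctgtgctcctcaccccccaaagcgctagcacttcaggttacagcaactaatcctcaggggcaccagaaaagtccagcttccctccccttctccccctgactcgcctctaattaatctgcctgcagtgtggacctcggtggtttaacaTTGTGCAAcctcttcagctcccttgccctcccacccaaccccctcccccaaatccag
C4bp: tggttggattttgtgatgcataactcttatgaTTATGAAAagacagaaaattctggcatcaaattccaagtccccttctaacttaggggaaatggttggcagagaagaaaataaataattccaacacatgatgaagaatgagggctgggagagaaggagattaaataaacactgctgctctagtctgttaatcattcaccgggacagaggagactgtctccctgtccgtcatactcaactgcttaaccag

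The Saa3 sequence held 4 C/EBP matches, which began 216, 191, 129 and 99 bases before the start site. Of 32851 RefSeq promoters searched over 300 bases, 40.7% held at least 1 such match and 0.852% held 4 or more. Lcn2, Ptx3 and C4bp held 1 match each, which began 216, 57 and 218 bases before their start sites. The NF-kB pattern GGGA, any 4 bases, CC, found in 20.7% of the promoters on either strand, was present in Ptx3, as GGGAACTCCC, which begins at the start site and so lies outside the printed bases. No match to it was found in the windows of Saa3, Lcn2 or C4bp. The STAT3 pattern TTCNNNGAA, found in 8.30% of promoters, had no match in any of these 4 windows. A match describes letters only and says nothing of binding.

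Of the 7 members above the filter on signal, 5 rose in SMRTmRID cells, 1 fell and 1 did not pass the test. The filter was a mean signal over the 4 arrays above the median of all values, 35.1. A call is an adjusted p under 0.05 by limma with Benjamini-Hochberg adjustment over all 11056 genes tested. Calls were common in this comparison. Of all genes tested 65.2% were called, 30.3% as higher and 35.0% as lower, so 6 calls among 7 members is not far above the background. The wild-type and SMRTmRID arrays stood apart for 6 of the 7 members, against 81.5% of all tested genes. The median log2 difference was 1.89 for the 7 members, which is the value of Serping1, and -0.05 for all tested genes. The members' median was 0.93 for the 5 above the 75th percentile, 1.41 for 8 with no filter, and 2.37 and 1.20 at pseudocounts of 1 and 64. Cfb and Serping1 passed the filter only through their SMRTmRID signals, and C4bp only through its wild-type signals. For such genes passing the filter and differing between genotypes are not independent, and the 7 do not stand for all 9. Each difference is the SMRTmRID mean less the wild-type mean of log2(signal + 16). The added 16 shrinks changes at low signals, and a signal is a MAS5 value of 1 probe set that is not compared between genes.

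**Figure D1:**
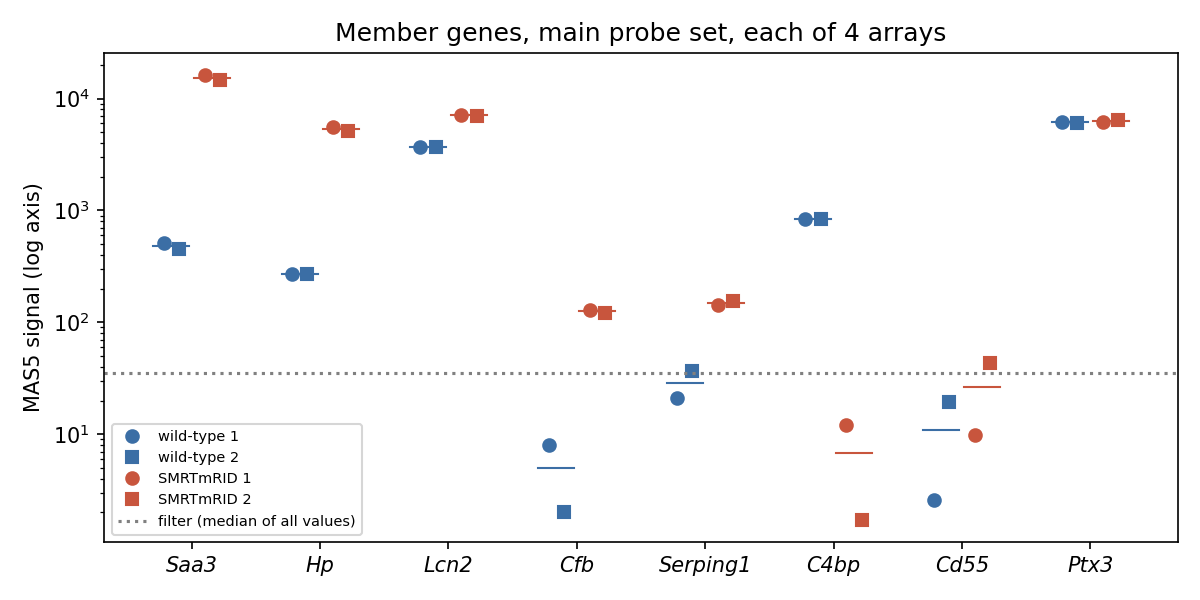
MAS5 signal (log axis) of the main probe set of 8 members on each of the 4 arrays, with blue for wild-type, red for SMRTmRID, circles for replicate 1, squares for replicate 2, short lines for the mean of 2 arrays and a dotted line at the filter of 35.1. The red points lie above the blue ones for Saa3, Hp, Lcn2, Cfb and Serping1 and below them for C4bp, and the colours overlap for Ptx3 and Cd55.

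The arrays agreed closely within a genotype. The median absolute difference between the 2 arrays of a genotype was 0.0983 (log2) in wild-type and 0.0986 in SMRTmRID, against 0.431 between the genotype means. The 10 fibroblast markers had summed signals between 70140.1 and 71950.0 in wild-type and between 83769 and 88172 in SMRTmRID, carried by collagens, Vim, Fn1 and S100a4. Of these markers 6 rose and 3 fell, or 90% called against 65.2% of all tested genes. Thy1 and Lum lay under the filter level in wild-type cells, at 20.6 and 6.57 and at 3.25 and 3.05, and Thy1, Pdgfra, Lum and Pdgfrb rose by 6.80, 4.20, 3.38 and 1.78 (log2), with 1.88 for Lum at a pseudocount of 64. Hepatocyte markers, 7 genes with Alb and Ttr among them, did not exceed 49.5 on any array, and their sums were 55.0 to 127 in wild-type and 114 to 137 in SMRTmRID. Of 11 macrophage and monocyte markers, summed at 383 to 621 in wild-type and 613 to 640 in SMRTmRID, 4 were tested. Of these 2 rose, Lyz2 by 1.65 (0.94 at a pseudocount of 64) and Cd14 by 0.41. That is 50% called, against 65.2% of all tested genes. Adgre1 did not pass (log2 difference 0.08). Cd68 had 40.9 and 31.0 in wild-type cells against 11.1 and 26.6 in SMRTmRID cells. Tyrobp had 18.4 and 10.6 against 2.51 and 2.13. Neither was tested and both were lower, whereas Itgam and Ptprc, also not tested, were higher on both SMRTmRID arrays. With no filter 2 of the 11 rose and 1 fell. Csf1r did not pass on its main probe set, with 266 and 86.7 in wild-type cells against 180 and 149 in SMRTmRID cells. All 3 probe sets of Csf1r were higher, by 0.08 to 1.99 (log2). Ptprc did not exceed 11.9. With the mean of each gene's probe sets 3 of the 4 tested macrophage and monocyte markers rose, and with median centring 1 rose. Their median difference was 0.24, or 0.70 with the mean of probe sets, and 0.33 to 0.64 when 1 array was left out. Of 7 neutrophil markers, summed at 76.1 to 149 and at 529 to 593, Camp and S100a8 rose by 3.50 and 1.95 (S100a8 by 1.10 at a pseudocount of 64), and Mpo, Elane, Ltf and S100a9 stayed under the filter. Of 7 epithelial markers, summed at 315 to 334 and at 295 to 338, 3 were tested. Krt19 rose by 1.95 from wild-type signals of 6.11 and 4.98, with 3.38 and 0.92 at pseudocounts of 1 and 64. Epcam had -0.37, but its call was lost in 4 of the alternatives, among them no filter and the mean of its probe sets (-0.25). Cdh1, not tested, had 55.9 and 42.3 in wild-type cells against 2.41 and 1.61 in SMRTmRID cells. Endothelial markers, 5 genes, did not exceed 44.3. Thy1, Lum, Lyz2, Camp, S100a8 and Krt19 passed the filter only through their SMRTmRID signals. The part of other cell types in the members' differences was not tested. In such cultures more cells making a transcript and more transcript per cell cannot be told apart.

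Of the 9 genes followed, Saa3 and Hp rose most among those measured, on the scale of log2(signal + 16). The place of Hp depends on the pseudocount. Cfb, from wild-type signals near the bottom of the scale, had a ratio of means of 25.1, above that of Hp. At a pseudocount of 1 Cfb rose by 4.60, and Hp reached at most 4.29 in any alternative. Saa3 encodes a serum amyloid A protein, an apolipoprotein of inflamed tissue that in mice is made mainly outside the liver. Its signal was 507 and 451 on the wild-type arrays and 16186 and 14557 on the SMRTmRID arrays. Every SMRTmRID value lay far above every wild-type value. The ratio of the means was 32.1, and the log2 difference was 4.96 ± 0.07 (SE, n = 2 arrays each, adjusted p = 6.87e-11 by limma), the 16th greatest rise among the tested genes. On the SMRTmRID arrays the Saa3 probe set was among the brightest, with 1 and 3 probe sets above it and highest signals of 17222 and 15951, so that little range was left above it.

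Hp encodes haptoglobin, the plasma protein that binds free haemoglobin. Its signal was 269.9 and 272 in wild-type cells against 5529.9 and 5135 in SMRTmRID cells. The wild-type arrays were nearly equal and the SMRTmRID arrays stood well apart from them. The ratio of means was 19.7 and the log2 difference 4.22 ± 0.06 (SE, adjusted p = 6.06e-11 by limma), the 30th greatest rise.

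Lcn2 encodes lipocalin 2, which binds bacterial siderophores and so withholds iron. It was bright in both genotypes, at 3695 and 3694 in wild-type cells against 7203 and 6933 in SMRTmRID cells. The groups did not overlap, and the rise was much smaller than that of Saa3 or Hp. The ratio of means was 1.91 and the log2 difference 0.93 ± 0.04 (SE, adjusted p = 1.40e-07 by limma). The gap exceeded the log2 difference between replicate arrays, which was 0.000393 in wild-type and 0.0551 in SMRTmRID.

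Ptx3 encodes pentraxin 3, a pattern recognition protein that also binds the complement protein C1q. Its main probe set had signals of 6229 and 6072 in wild-type cells against 6223 and 6396 in SMRTmRID cells. The genotypes overlapped. The log2 difference was 0.04 ± 0.04 (SE, adjusted p = 0.493 by limma). With quantile normalization the difference was 0.11 and passed (adjusted p = 0.0343), with the mean of the gene's probe sets it was 0.40 and passed (0.0145), and with median centring it was -0.13. The other Ptx3 probe set was dim, at 13.4 and 10.03 in wild-type cells against 21.9 and 42.8 in SMRTmRID cells, and its mean lay under the filter.

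**Figure D2:**
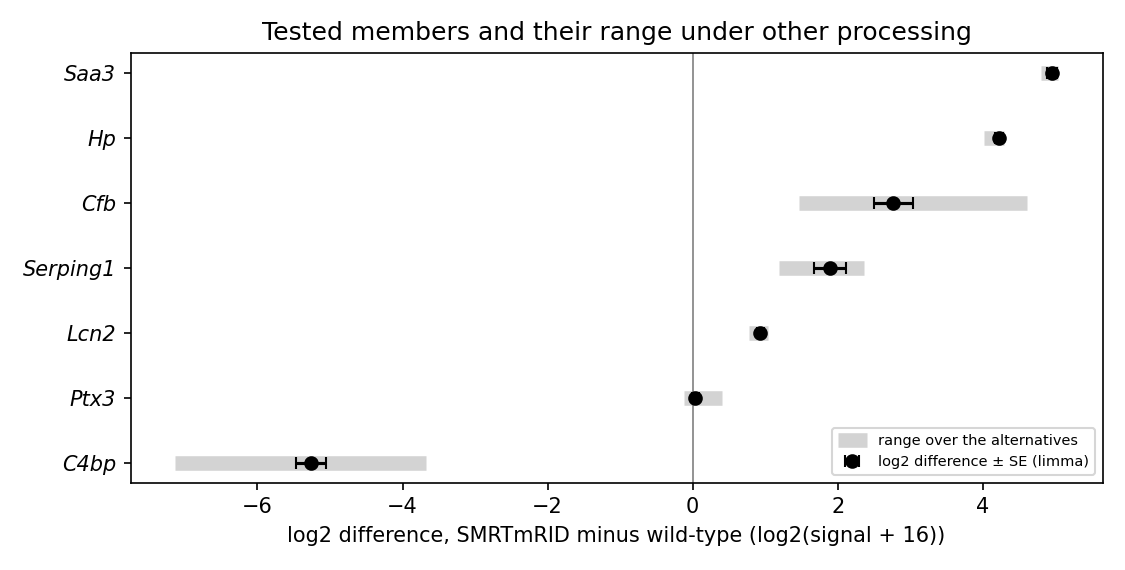
Log2 difference of each tested member of log2(signal + 16), SMRTmRID less wild-type, with points for the estimate, black bars for 1 SE by limma and grey bars for the range over the processing alternatives. The grey bar of Ptx3 crosses 0, while those of Saa3, Hp, Lcn2, Cfb and Serping1 lie above 0 and that of C4bp lies below 0.

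The complement component measured among the members was Cfb. It encodes factor B, the protease precursor of the alternative pathway, which joins C3b to form the enzyme that cleaves more C3. Cfb had signals of 8.03 and 2.00 in wild-type cells against 130.0 and 121 in SMRTmRID cells. Both wild-type values were near the bottom of the scale, and both SMRTmRID values were modest. The log2 difference was 2.77 ± 0.27 (SE, adjusted p = 1.37e-05 by limma). From so low a level the size depends on the pseudocount, and it was 4.60 with a pseudocount of 1 and 1.46 with 64. The gene passed the filter through its SMRTmRID signals, and a mean signal above the 75th percentile of all values, 203, was not reached.

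The regulators went different ways. Serping1 encodes C1 inhibitor, the serpin that inactivates the proteases C1r and C1s and also restrains the kallikrein system. Its signals were 21.0 and 36.9 in wild-type cells against 143 and 154 in SMRTmRID cells. The arrays did not overlap, although the wild-type arrays differed by 0.51 (log2). Its wild-type mean of 28.9 lay under the filter level, so Serping1 too was tested only because its SMRTmRID signals were high. The log2 difference was 1.89 ± 0.22 (SE, adjusted p = 5.29e-05 by limma), with 2.37 at a pseudocount of 1 and 1.20 at 64.

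C4bp encodes the C4b-binding protein, a soluble cofactor for the breakdown of C4b that limits the classical and lectin pathways. Its signals were 835 and 839 in wild-type cells against 12.0 and 1.72 in SMRTmRID cells. The wild-type arrays were nearly identical, and the SMRTmRID arrays were both far under the filter level. C4bp was therefore tested only because its wild-type signals were high. The log2 difference was -5.26 ± 0.21 (SE, adjusted p = 4.10e-08 by limma), the 5th greatest fall among the tested genes. Its size rests on the low end of the scale, and it was -7.14 with a pseudocount of 1 and -3.67 with 64.

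Cd55 encodes decay-accelerating factor, a membrane-anchored regulator that breaks up the C3-cleaving enzymes on cell surfaces. None of its 3 probe sets reached the filter, so it was not tested. The probe set with the highest mean had signals of 2.59 and 19.3 in wild-type cells against 9.76 and 43.2 in SMRTmRID cells, which overlapped. The second had 8.39 and 3.54 against 27.2 and 17.5, with both SMRTmRID values higher. The third had 21.1 and 13.2 against 5.86 and 18.1, which overlapped. The probe sets therefore gave no common direction at these low signals.

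**Figure D3:**
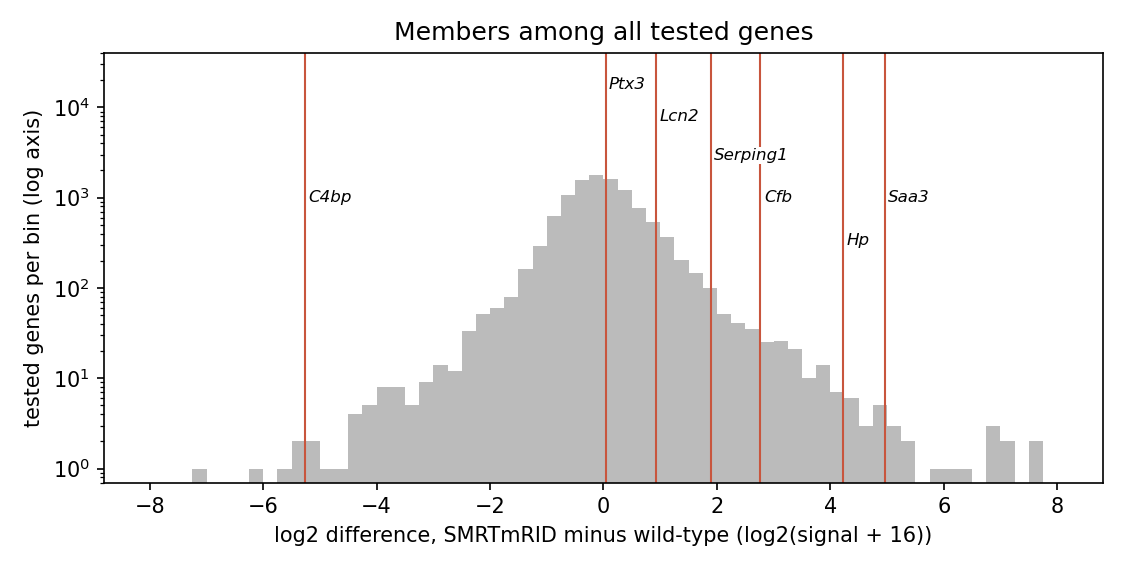
Number of tested genes (log axis) in bins of 0.25 of the log2 difference of log2(signal + 16), SMRTmRID less wild-type, for 11056 genes, with red lines at the 7 tested members. C4bp stands in the sparse lower tail, Saa3 and Hp in the upper tail, and Ptx3 at the centre.

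Of the other complement genes, those that encode the first proteases of the classical pathway rose strongly. The complement lists held 60 symbols, 46 of them with a named probe set and 14 above the filter. Without the members 11 remained, of which 6 rose and 4 fell, at a median difference of 0.46. The share called was 90.9%, against 65.2% of all tested genes, 30.3% as higher and 35.0% as lower. Among the 11, Cfp and Cd93 passed the filter only through their SMRTmRID signals and C2 only through its wild-type signals. For these genes the filter and the call are not independent. C1s1 encodes the protease C1s, which cleaves C4 and C2, and went from 362 and 330.2 in wild-type cells to 3939 and 3615 in SMRTmRID cells. Its log2 difference was 3.39 (adjusted p = 5.17e-10 by limma). C1ra, which encodes the protease C1r that activates C1s, went from 448 and 481 to 2710 and 2446, a log2 difference of 2.43. These 2 proteases are the targets of the inhibitor that Serping1 encodes, which rose as well. The recognition subunits C1qa, C1qb and C1qc, made chiefly by macrophages, had signals of at most 26.0 on any array and were not tested.

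Colec12, a scavenger receptor of the collectin family, rose by 2.13, and Cfp, which encodes properdin, the stabiliser of the alternative pathway enzyme, rose by 1.82 from signals of 7.25 and 7.83 to 60.9 and 73.5. Cfp passed the filter only through its SMRTmRID signals. Its difference was 2.99 and 0.87 at pseudocounts of 1 and 64, and it was not tested with the mean of its probe sets. Masp1, a protease of the lectin pathway, fell from 594 and 589 to 306 and 281, a log2 difference of -0.97, or -0.40 with the mean of its probe sets. C2, which encodes the protease precursor that the classical and lectin pathways use in place of factor B, had 115 and 89.6 in wild-type cells against 30.1 and 16.2 in SMRTmRID cells on its main probe set, a log2 difference of -1.61 (adjusted p = 0.000418 by limma). The other 2 probe sets of C2 stayed at or below 19.0 on every array, so the call rests on 1 of 3 probe sets. C2 passed the filter only through its wild-type signals, and the difference was -0.93 at a pseudocount of 64. C2 and Cfb are adjacent on chromosome 17 and were called in opposite directions. None of 6 genes of the terminal pathway, whose products form the membrane pore, exceeded 38.1, and none was tested.

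**Figure D4:**
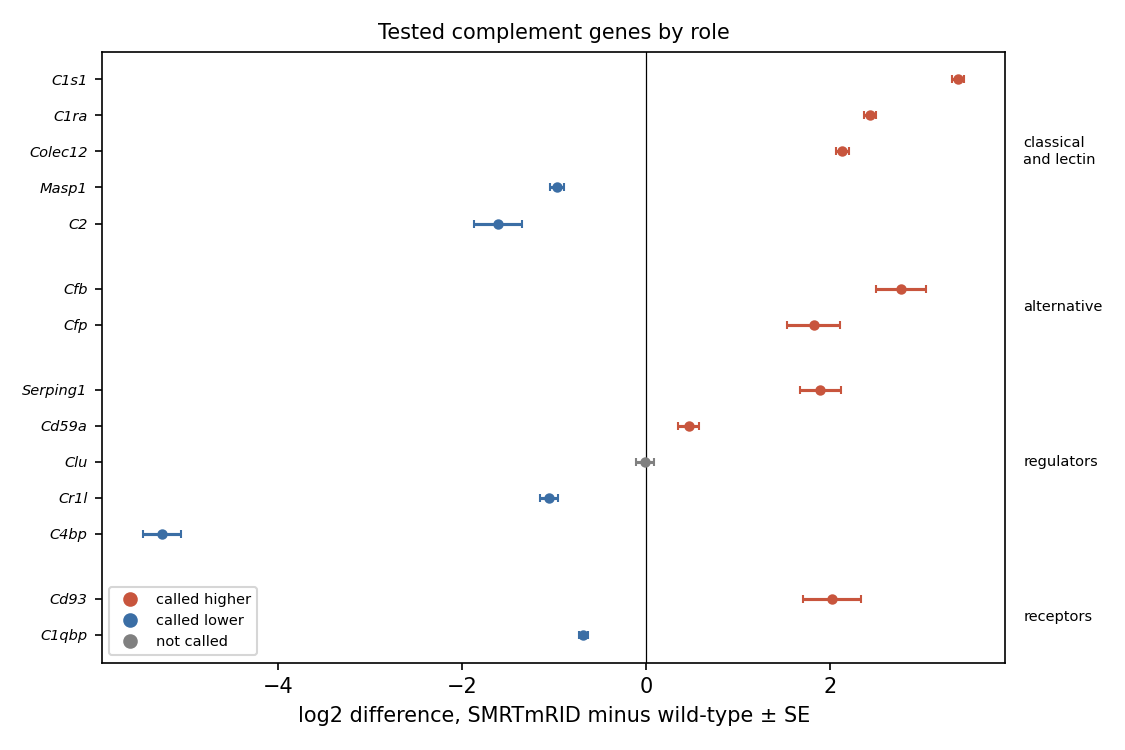
Log2 difference with 1 SE by limma of log2(signal + 16), SMRTmRID less wild-type, for the 14 tested complement genes grouped by role, with red for genes called higher, blue for genes called lower and grey for genes not called. C1s1 at 3.39 and C4bp at -5.26 are the ends of the range.

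Among 5 tested regulators, 2 rose, 2 fell and 1 did not pass, or 80% called against 65.2% of all tested genes. Cd59a encodes the membrane inhibitor of the pore-forming complex and rose by 0.46 (0.30 with median centring), with 189 and 162 in wild-type cells against 246 and 248 in SMRTmRID cells. Cr1l encodes Crry, the main membrane regulator of C3 on mouse cells, and had 623 and 543 in wild-type cells against 289.9 and 253 in SMRTmRID cells. Its log2 difference was -1.06 on the brightest of 3 probe sets, but the other 2 lay at or below 27.7, and with the mean of the probe sets the call was lost (-0.23, adjusted p = 0.218). Clu, which encodes clusterin, had 258 and 279 against 267 and 264 and did not pass (log2 difference -0.01, adjusted p = 0.906 by limma). C4bp, Cd55 and Cd55b lie close together on chromosome 1, whereas Cr1l, Cd46 and Cr2 form a group far along the same chromosome. Pfkfb2, the protein-coding gene next to C4bp, encodes an enzyme that sets the level of a glycolysis activator, and it fell from 181 and 179.5 to 43.7 and 66.0, a log2 difference of -1.49, or -0.98 with the mean of its probe sets. Yod1, the gene beyond it, had a log2 difference of 0.19 that did not pass (adjusted p = 0.428). Of 2 tested complement receptors, Cd93 rose by 2.01 on the brightest of 5 probe sets, which ran from -0.17 to 2.45 (1.10 at a pseudocount of 64), and C1qbp fell by 0.69 on the log2 scale. Cd93 passed the filter only through its SMRTmRID signals. The receptors for the small fragments C3a and C5a, C3ar1 and C5ar1, did not exceed 23.8.

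Other acute-phase genes above the filter were called in both directions. The list of acute-phase and transport proteins held 43 symbols, 37 with a named probe set, of which 15 were tested, 8 rose and 5 fell. Without the members 11 were tested, of which 5 rose and 5 fell, at a median difference of 0.07. Called were 86.7% with the members and 90.9% without them, against 65.2% of all tested genes, 30.3% as higher and 35.0% as lower. With no filter all 37 were tested, members included, and 11 rose and 5 fell, against 3240 and 3599 of all 18193 genes. Steap4, a metalloreductase induced by inflammatory cytokines, went from 69.7 and 69.4 in wild-type cells to 2273 and 2255 in SMRTmRID cells, a log2 difference of 4.74 (adjusted p = 1.40e-10 by limma). Orm1, which encodes orosomucoid, a plasma carrier protein, went from 0.777 and 2.02 to 238 and 243, a log2 difference of 3.88. From so low a level it was 6.71 at a pseudocount of 1 and 2.22 at 64. Lbp, which encodes the lipopolysaccharide-binding protein, rose by 3.12, and Cp, which encodes the copper protein ceruloplasmin, by 3.05. Both Orm1 and Lbp passed the filter only through their SMRTmRID signals. All 8 probe sets of Cp were higher, by 1.87 to 3.74 (log2). Cd14, the co-receptor for lipopolysaccharide, rose by 0.41, but not with median centring (adjusted p = 0.122), without wild-type replicate 2 (0.0610) or without SMRTmRID replicate 1 (0.0598).

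The members of this list that fell were of several kinds. Itih2, a heavy chain of the inter-alpha-trypsin inhibitor family, fell from 246 and 259 to 49.2 and 51.3, a log2 difference of -2.02. Il1rn, which encodes the interleukin-1 receptor antagonist, fell from 2415 and 2537 to 1161 and 1246, a log2 difference of -1.03, and Serpina3n, a protease inhibitor, had -0.95. The metallothionein genes Mt2 and Mt1 had -0.51 and -0.20, and Mt1 lost its call in 5 of the alternatives. The liver-type paralogs of Saa3 stayed dim. Saa2 had 18.1 and 53.3 in wild-type cells against 22.01 and 52.0 in SMRTmRID cells (log2 difference 0.07, adjusted p = 0.897 by limma), and Saa1 and Saa4, with both SMRTmRID arrays above both wild-type arrays, did not exceed 36.2 and were not tested. Saa1 and Saa2 are near-identical, so their probe sets may not tell them apart. None of the 22 genes of the list under the filter exceeded 42.7 on any array. Crp, Apcs and Fgb did not exceed 8.02, whereas Alb had 18.7 and 4.47 in wild-type cells against 40.3 and 31.1 in SMRTmRID cells.

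**Figure D5:**
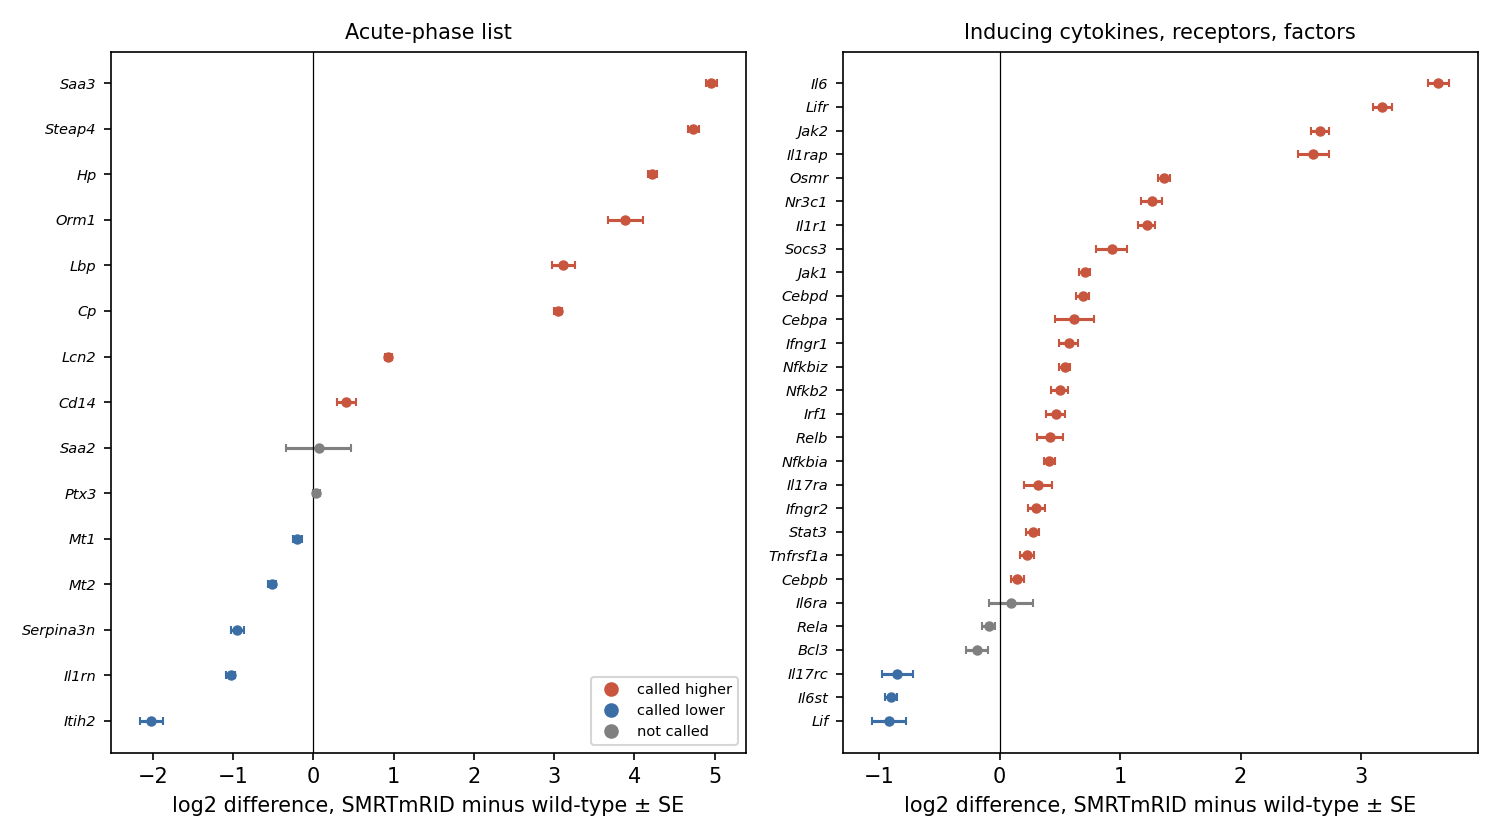
Log2 difference with 1 SE by limma of log2(signal + 16), SMRTmRID less wild-type, for 15 tested acute-phase genes (left) and 28 tested genes of the list of inducing cytokines, receptors, transcription factors and their inhibitors (right), with red for called higher, blue for called lower and grey for not called. The acute-phase genes run from 4.96 to -2.02. On the right 22 of the 28 genes are red, with the inhibitor genes Socs3 and Nfkbia among them.

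In the pooled list of inducing cytokines, their receptors, kinases, transcription factors and inhibitors, most tested genes were higher. Of its cytokine genes only Il6 and Lif were tested, and they moved in opposite directions. Of 28 above the filter 22 rose and 3 fell, at a median difference of 0.48. The share called was 89.3%, against 65.2% of all tested genes, 30.3% as higher and 35.0% as lower. With median centring, which moved the median of all tested genes by -0.16, 16 rose and 5 fell. That centring also moved the calls over all genes from 3346 higher and 3866 lower to 2472 higher and 4735 lower. Il6, which encodes interleukin-6, the main inducer of acute-phase genes in the liver, went from 121 and 129.5 in wild-type cells to 1871 and 1626 in SMRTmRID cells, a log2 difference of 3.64 (adjusted p = 1.50e-09 by limma). The receptor genes Lifr, Il1rap, Osmr and Il1r1 rose by 3.18, 2.60, 1.36 and 1.22, and the kinase gene Jak2 by 2.66. With the mean of their probe sets Lifr, Il1rap and Il1r1 had 2.11, 1.29 and 0.76. Il6ra, the interleukin-6 receptor gene, did not pass (log2 difference 0.10, adjusted p = 0.662 by limma), except with the mean of its probe sets (0.40, adjusted p = 0.0324). Il6st, which encodes the gp130 subunit shared by the interleukin-6 family receptors, fell from 4034 and 3915 to 2177 and 2062, a log2 difference of -0.90. Lif had -0.92 and Il17rc -0.85, or -0.50 for Il17rc with the mean of its probe sets. Among the transcription factors, Cebpd rose by 0.69, Nfkbiz by 0.54 and Nfkb2 by 0.50, and Stat3 by 0.27 but not with median centring (0.11, adjusted p = 0.353). Rela did not pass (log2 difference -0.09, adjusted p = 0.175 by limma), except as lower with median centring (-0.25, adjusted p = 0.0256). Socs3, the feedback inhibitor induced by STAT3, rose by 0.93, and Nr3c1, the glucocorticoid receptor gene, by 1.26. Il1a, Il1b, Tnf, Osm and Ifng did not exceed 41.5 and were not tested.

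Of 7 tested receptors and partners of the acute-phase proteins, 3 rose and 4 did not pass. That is 42.9% called, against 65.2% of all tested genes, and without wild-type replicate 1 it was 5 of 7. Lrp1, which clears several plasma protein complexes, rose by 0.56, Scarb1, a lipoprotein receptor that also takes up serum amyloid A, by 0.46 (0.30 with median centring) and Tlr2, a toll-like receptor that serum amyloid A can activate, by 0.86. Tnfaip6, whose product binds pentraxin 3 in the matrix, had a log2 difference of 0.25 (adjusted p = 0.121 by limma). Slc22a17, a reported receptor for lipocalin 2, had 112 and 43.7 in wild-type cells against 91.3 and 93.1 in SMRTmRID cells (log2 difference 0.31, adjusted p = 0.412 by limma), and without wild-type replicate 1 it was 0.86 and passed (0.0101). The haptoglobin receptor gene Cd163 did not exceed 22.7.

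The 4-array profiles nearest to those of Saa3 and C4bp were found by Euclidean distance between log2(signal + 16) values over the 4 arrays. For Saa3 they belonged to Tmem176b at a distance of 2.22, the neutrophil chemokine gene Cxcl5 at 2.29 and Hp at 2.43. For C4bp they belonged to the transcription factor gene Foxd1 at 0.264, the matrix protein gene Efemp1 at 0.986 and the transcription factor gene Lhx9 at 0.989. Foxd1 had 842 and 884 in wild-type cells against 17.2 and 2.56 in SMRTmRID cells, so its signals nearly matched those of C4bp on each array. With 2 genotypes and 2 arrays each, such likeness describes 1 difference and its level only.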

How the data were processed

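Total RNA of 3T3-MEFs was labelled with biotin and hybridised to 4 Affymetrix arrays. The deposited intensity values are MAS5 signals on a linear scale, per the submitters' processing notes; their version and detection calls are not given in the sources used here. After trimming 2% of values at each end, every array had a mean of 200.0. Probe sets were named from GEO's platform annotation: of 45037 without the 64 controls, 34945 had 1 symbol, 932 several and 9160 none here. For each gene the probe set of highest mean signal was used. The genotype difference in log2(signal + 16) was fitted over all 4 arrays, without covariates, by limma 3.58.1 (lmFit, then eBayes with trend; R 4.3.3); p-values are two-sided and Benjamini-Hochberg adjusted across all genes tested. The script was tested on simulated data.

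The labels name no batch. Replicate numbers did not pair arrays: deviations from genotype means correlated at 0.0121 across genes. The members and lists were chosen with earlier results of these data known. Named were all members, up to 4 called genes per list with the greatest change, paralogs of members and some, not all, of their neighbours. The 3 nearest profiles to Saa3 and to C4bp were named as well. Other list genes, and the count of promoters with 4 or more matches, were chosen after values were seen. Gene order and promoters come from RefSeq (GRCm38.p6), used for names, neighbours and sequence only. Alternatives were pseudocounts of 1 and 64, no filter, a filter at the 75th percentile, quantile normalization, median centring, no trend, averaging all probe sets of a gene, the replicate block, and each array left out. Figures were drawn with matplotlib 3.10.9.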

Additional observations from a re-analysis of the deposited data

How the results depend on the processing

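Saa3, Hp, Lcn2 and C4bp kept their direction and call in all 13 alternatives, and Cfb and Serping1 in the 12 in which they were tested, since neither reached the filter at the 75th percentile. Their differences ranged from 4.796 to 5.04 for Saa3, 4.01 to 4.29 for Hp, 0.77 to 1.04 for Lcn2, 1.46 to 4.60 for Cfb, 1.20 to 2.37 for Serping1 and -7.14 to -3.67 for C4bp, with the extremes of the last 3 set by the pseudocount. Their highest adjusted p over the alternatives was 0.00239 (limma, Serping1). With all 4 arrays 6 or 7 of 7 tested members were called, the 7 with quantile normalization and with the mean of probe sets. With the filter at the 75th percentile it was 4 of 5, and with no filter 6 of 8. With the replicate block 6 members and 7418 genes were called, and it changed no member's call. Over all genes, calls ranged from 5189 of 6832 tested with the stricter filter to 7418 of 11056 with the block. They were 6839 of 18193 with no filter, 7320 of 11056 with quantile normalization and 6260 of 10583 with the mean of probe sets. Among the other named genes, 2 reversed. Fcgr2b, at -0.0036, ranged from -0.40 to 0.40 when 1 array was left out, and Cebpb, at 0.15, was -0.017 with median centring, and the cause was not tested. Precision is limited by having 2 arrays each and, for Cfb, Cd55 and the SMRTmRID level of C4bp, by the low end of the signal scale. With median centring limma took the spread of each gene wholly from the trend over all genes, so p-values under that setting carry no spread of the gene's own.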

Other observations

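The nearest tested genes on either side of the 7 tested members were looked up after the members' values had been seen. Of these 14 neighbours 4 rose, 5 fell and 5 did not pass (limma), so 9 of 14 were called against 65.2% of all tested genes, and nothing is read from the count. Shox2, a limb and heart development transcription factor gene next to Ptx3, went from 26.8 and 30.6 in wild-type cells to 1509.8 and 1515 in SMRTmRID cells. Its log2 difference of 5.10 ± 0.0984 (SE) passed the test (adjusted p = 5.17e-10 by limma), while Ptx3 itself stayed near 6150.7 and 6309.7 on average. Shox2, and Ube2l6 named next, passed the filter only through their SMRTmRID signals. Ube2l6, an interferon-induced conjugating enzyme gene beside Serping1, rose by 0.79 (adjusted p = 0.0241), but lost its call in 6 of the alternatives. Beside Hp, Dhodh, a pyrimidine synthesis enzyme gene, had a log2 difference of -0.90 and Txnl4b, on the other side, of -0.30 that did not pass (adjusted p = 0.0563) but was called under 4 of the alternatives. Saal1, beside Saa3, had 451 and 301 in wild-type cells against 256 and 311 in SMRTmRID cells and did not pass (adjusted p = 0.0770), but was called as lower under 5 of the alternatives, with the replicate block among them (-0.37, adjusted p = 0.00937).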
